A study of Mus musculus with 5 samples.

Results

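The genes described here are 36 components of the autophagy machinery, picked by symbol for their place in the pathway, with earlier results of these data known. All 36 were rows of a deposited table of 35976 genes, and all 36 were among the 11146 genes that could be tested. They fall into 5 genes of initiation, 6 of nucleation, 6 that read or feed the growing membrane, 7 conjugation enzymes, 5 ATG8 proteins, 4 ATG4 proteases and 3 cargo receptors.

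Autophagy encloses a portion of cytoplasm in a double membrane, the autophagosome, and hands it to the lysosome for breakdown. The ULK kinase complex starts the process, a class III PI3 kinase complex marks the site with the lipid PI3P, and a chain of conjugation enzymes attaches small ubiquitin-like ATG8 proteins to the membrane, where cargo receptors bind them. Blood stem cells are known to depend on this route for clearing mitochondria and for staying quiescent.

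The libraries were made from haematopoietic stem cells (HSCs) of C57BL/6 mice, sorted from bone marrow as CD150+ Sca-1+ c-kit+ cells without lineage markers or CD34. Each of the 5 libraries pools 30 cells of a different mouse and was prepared by Smart-seq2, a full-length cDNA protocol for small cell numbers in which strand and molecule identifiers are lost. The labels put 2 libraries under WT and 3 under Ythdf3-/-, a genotype without the gene of a reader protein of the RNA mark m6A, whereas the series text counts 3 WT and 2 knockout samples. The making of the Ythdf3 allele and the age and sex of the mice were not given in the sources used here. Values below are listed in the order WT 1, WT 2, then Ythdf3-/- 1, 2 and 3, as counts or as CPM, the usual depth-scaled count, which divides by the library's total.

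For Ythdf3 itself the table lists 20 and 29 counts under WT labels, against 2, 339 and 366 counts in the 3 others. Its counts were higher in 2 of the 3 libraries labelled as knockouts than in either library labelled WT, which goes against the labels, and the table does not show where in the gene these reads lie. Every direction below therefore refers to the labels alone. Library totals ran from 6357862 to 16650134 counts, so that 1 count was worth 0.0601 to 0.157 CPM. All 10 stem cell and sort markers examined had counts in every library, with Slamf1, which encodes CD150, at 1 count in the library labelled WT 2, Fgd5 at 2 and 5 counts in those labelled Ythdf3-/- 1 and 3, and Cd34 between 20 and 3455 counts. Erythroid markers summed to 28.7, 1257, 29569, 109 and 117 CPM, highest in the libraries labelled Ythdf3-/- 1 and WT 2, but largely through different genes. In Ythdf3-/- 1 globins led, with Hba-a1 at 18523.5 CPM, while Gata1 had 1 count, Klf1 9 and Car1 24. In WT 2 Car1 had 456, Klf1 169 and Gata1 118 CPM, beside Hba-a1 at 272 CPM. Epor was alike in these libraries, at 49.1 CPM in Ythdf3-/- 1 and 52.7 CPM in WT 2. Because each library is a pool, fewer cells with a transcript and less of it per cell cannot be told apart.

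The step that ties the protease and ubiquitin-like families together can be read from the coding sequence. An ATG4 protease cuts each newly made ATG8 protein after a glycine near its end, and that glycine is then joined to the lipid of the membrane. The ends of the 5 coding sequences are shown because the members whose libraries separate by label include Atg4b and Atg4a, of these proteases, and Map1lc3a and Gabarap, of their substrates. Each line gives, from 5′ to 3′, 24 bases before the glycine codon, that codon in capitals, and the rest up to the stop codon, from the GENCODE M21 transcripts of the mouse build GRCm38.
Map1lc3a: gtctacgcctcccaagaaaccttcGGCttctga
Map1lc3b: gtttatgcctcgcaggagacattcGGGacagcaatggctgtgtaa
Gabarap: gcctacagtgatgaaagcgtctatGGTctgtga
Gabarapl1: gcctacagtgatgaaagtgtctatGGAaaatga
Gabarapl2: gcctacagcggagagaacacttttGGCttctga
The glycine is residue 120 in Map1lc3a and Map1lc3b and residue 116 in the 3 GABARAP proteins. In Map1lc3b 5 residues follow it, and in each of the other proteins 1 residue does. Over the 27 bases up to the end of the glycine codon, Map1lc3a matched Map1lc3b at 20 bases, Gabarapl2 at 13, and Gabarap and Gabarapl1 at 7.

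Most of the machinery was read in all 5 libraries, and it was led by the ATG8 proteins and a receptor. Per kilobase of transcript, the mean level over the 5 libraries was 289 CPM for Map1lc3b, 202 for Gabarap, 162 for the receptor Sqstm1, 137 for Gabarapl1, 121 for Vmp1 and 109 for Atg101. The ranges over the libraries overlapped between neighbours in this order, so the order itself is not fixed by these data. At the lower end stood Pik3r4 at 3.42, Ulk2 at 3.85 and Wipi1 at 4.18 CPM per kilobase. In all, 23 of the 36 members lay above 5 CPM in every library, and 6 members (Pik3c3, Pik3r4, Ambra1, Wipi1, Atg4c and Optn) had 3 counts or fewer in at least 1.

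No member passed the test between the labels. The quasi-likelihood test of edgeR called 0 of the 36 members at a Benjamini-Hochberg adjusted p under 0.05, as it called 0% of all 11146 genes tested, and the lowest adjusted p among the members was 0.964. At an unadjusted p under 0.05 there were 2 members higher under the Ythdf3-/- label, Atg4b and Atg12, against 2.11% of all tested genes, and 1 lower, Ambra1, against 2.75%. DESeq2, run beside edgeR, called Atg4b higher and Ambra1 lower, where it called 2.32% of all tested genes in either direction. Limma voom called 0 members. DESeq2 gave no adjusted p for Pik3r4 and Atg4c.

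Fold changes are given as log2 of the libraries labelled Ythdf3-/- over those labelled WT. The fitted value was above 0 for 25 members and below 0 for 11, with a median of 0.50, while 47.8% of all tested genes were fitted above 0 and their median was -0.06. Without the library labelled WT 1 the medians were 0.64 for the members and 0.31 for all genes, and without WT 2 they were 0.41 and 0.22. The summed level of the 36 members was 3583 and 2530 CPM with the WT label, against 4506, 4024 and 3760 CPM with the Ythdf3-/- label. By library totals these sums do not overlap between the labels, the nearest pair being 3583 and 3760 CPM. Their means were 3056 ± 744 CPM (SD, n = 2) and 4097 ± 378 CPM (SD, n = 3). Whether the sums stay apart under other scalings, and how often sums of other genes do so, was not tested. Single members whose groups do not overlap were 9 higher under the Ythdf3-/- label, where 9.74% of all tested genes do so, and 4 lower, where 11% do. The higher ones were Rb1cc1, Becn1, Atg9a, Atg12, Atg16l2, Gabarap, Atg4a, Atg4b and Nbr1, and the lower ones Ambra1, Atg2b, Atg3 and Map1lc3a. Gabarap is no longer among them when libraries are scaled by TMM, by the size factors of DESeq2 or by the upper quartile.

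**Figure D1:**
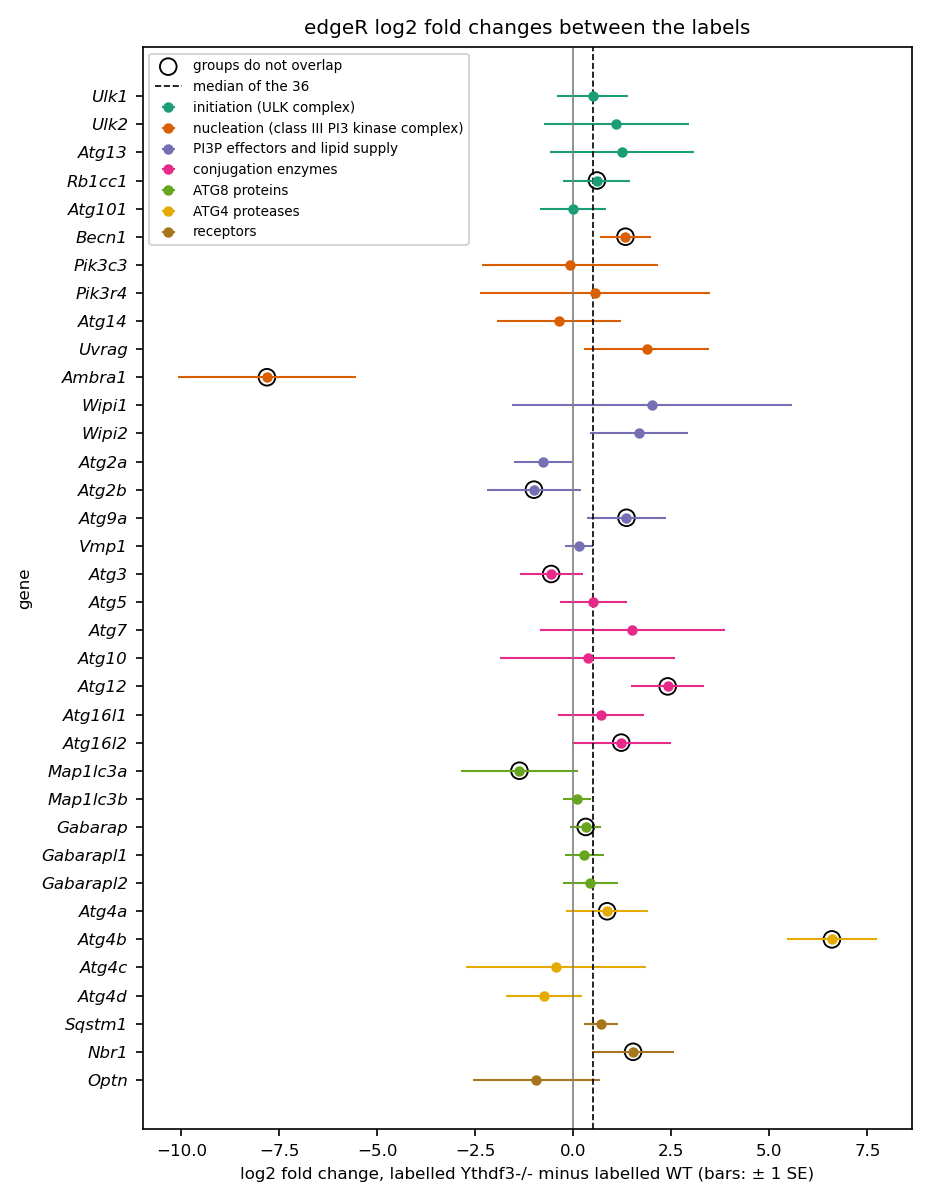
Fitted log2 fold change of each of the 36 genes (libraries labelled Ythdf3-/- over labelled WT, horizontal axis) by gene, coloured by step, with bars of 1 standard error, rings around genes whose groups do not overlap and a dashed line at the median of the 36. The points lie on both sides of 0 around a median of 0.50, with Atg4b at 6.59 and Ambra1 at -7.82 standing apart.

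Among the genes of initiation, 4 of 5 were fitted higher under the Ythdf3-/- label and none passed the test, with a step median of 0.60, or 0.36 without the libraries labelled WT 2 and Ythdf3-/- 1. Rb1cc1, which encodes the scaffold FIP200 of the ULK complex, had 54.5, 39.7, 84.3, 68.7 and 74.1 CPM. All of its libraries labelled Ythdf3-/- lay above both labelled WT, with means of 75.7 ± 7.90 against 47.1 ± 10.5 CPM and a log2 fold change of 0.60 ± 0.86 (SE; edgeR unadjusted p = 0.503), or 0.33 without those libraries. Atg101, which holds the complex together with Atg13, had the highest mean CPM of the step, at 143, 124, 281, 28.2 and 114 CPM. Its highest and lowest libraries both carried the Ythdf3-/- label, and the fitted difference was -0.01 ± 0.85, of no fixed sign across ways of scaling the libraries.

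Ulk1, the kinase at the head of the pathway, had 55.3, 39.0, 62.9, 49.9 and 98.2 CPM, with overlapping groups. Its relative Ulk2 had 13.4, 11.8, 12.4, 55.9 and 17.1 CPM. Per kilobase, Ulk1 made up 82.0, 78.4, 84.8, 49.6 and 86.3% of the 2 kinases, so that the library labelled Ythdf3-/- 2 was the one in which they stood level. Atg13, the adaptor that brings the kinase to the scaffold, had 13 counts (0.781 CPM) in the library labelled WT 1 and between 30.1 and 47.6 CPM in each of the others.

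In the nucleation complex, 3 of 6 genes were fitted higher under the Ythdf3-/- label, none passed the test by edgeR, and the step median was 0.23. That median has no fixed sign: it was -0.29 with a replicate block, -0.52 with limma voom and -0.05 without the library labelled Ythdf3-/- 3, but 1.98 without WT 1. Becn1, the regulatory subunit of the PI3 kinase complex, had 79.6, 54.0, 164, 269 and 96.9 CPM. Its libraries labelled Ythdf3-/- all lay above those labelled WT, with a log2 fold change of 1.33 ± 0.65 (SE; edgeR unadjusted p = 0.0738), or 0.88 without Ythdf3-/- 2. Of the exon bases of Becn1, 43.9% also lie in exons of Cntd1 on the annotation used, and reads there cannot be assigned without strand.

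Ambra1, a scaffold that links Becn1 to the ULK complex and to ubiquitin ligases, was read almost only under the WT label. Counts of 1129 and 447 with the WT label stood against 0, 2 and 4 in those labelled Ythdf3-/-, or 67.8 and 49.8 against 0, 0.220 and 0.570 CPM. The groups do not overlap, and means were 58.8 ± 12.7 CPM (SD, n = 2) against 0.263 ± 0.287 CPM (SD, n = 3). The fitted log2 fold change was -7.82 ± 2.28 (SE), a size that depends on the prior count used for values near 0. EdgeR gave an unadjusted p = 0.00881 and an adjusted p = 0.964, and DESeq2 an adjusted p = 0.000827. The gene spans chr2:91730138-91918849 on the plus strand of GRCm38, and none of its exon bases lies in an exon of another annotated gene.

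The catalytic subunit and its regulatory partner varied from library to library with no tie to the labels, each being at 1 count in at least 1 of them. Pik3c3, the lipid kinase VPS34, had 26, 560, 163, 1 and 517 counts. Pik3r4, the regulatory kinase VPS15 that the lipid kinase needs, had 411, 3, 1, 508 and 1 counts. In the library labelled Ythdf3-/- 2, Pik3r4 was at its highest, 56.0 CPM, while Pik3c3 was at its lowest, 0.110 CPM. Atg14 and Uvrag are the alternative subunits that direct the complex to autophagosome formation or to endosomes. Atg14 had 83.2, 6.36, 32.7, 6.39 and 70.3 CPM, and Uvrag had 27.8, 4.13, 59.5, 113 and 8.84 CPM. Of the exon bases of Uvrag, 17.6% lie in another annotated gene. Of the 6 genes of this step, Becn1 alone stayed above 50 CPM in every library.

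**Figure D2:**
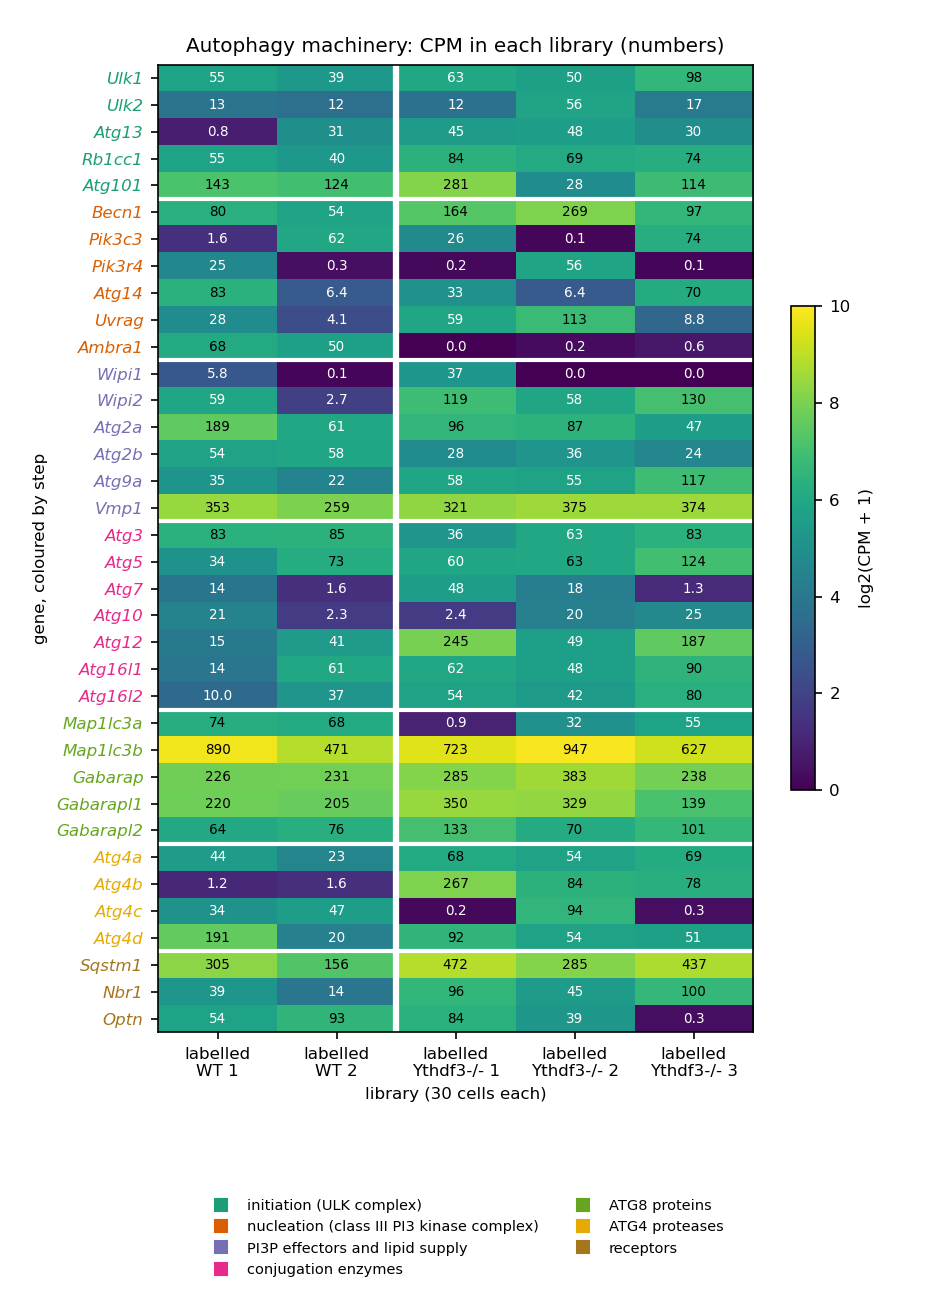
Level of each of the 36 genes (rows, ordered by step) in each of the 5 libraries (columns, by label and number) as log2(CPM + 1), with the CPM printed in each cell. Vmp1 and the genes of the ATG8 step other than Map1lc3a are even across the columns, while Ambra1, Atg4b, Pik3r4, Wipi1 and Atg4c move between values near 0 and values above 30 CPM.

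Among the genes that read PI3P or feed lipid to the membrane, 4 of 6 were fitted higher under the Ythdf3-/- label and none passed the test, with a step median of 0.75. It turned to -0.38 with limma voom and to -0.43 without the libraries labelled WT 2 and Ythdf3-/- 1, and was 0.14 with a stricter filter, 0.23 without Ythdf3-/- 1 and 0.37 without WT 2. Vmp1, a scramblase of the endoplasmic reticulum, had the highest mean CPM of the step and differed little, with 353, 259, 321, 375 and 374 CPM. Its groups overlap and its log2 fold change was 0.14 ± 0.35 (SE), with its sign lost without WT 2 (-0.02). Atg9a, the scramblase of the vesicles that seed the membrane, had 34.7, 21.6, 57.9, 55.1 and 117 CPM, each library labelled Ythdf3-/- above each labelled WT. Its log2 fold change was 1.35 ± 1.02 (SE; edgeR unadjusted p = 0.220), and 32.6% of its exon bases are shared with other annotated genes, among them Ankzf1.

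Atg2a and Atg2b encode the bridges that carry lipid into the membrane. Atg2b had 53.5, 57.5, 27.7, 36.5 and 23.8 CPM, lower in each library labelled Ythdf3-/- than in either labelled WT, with a log2 fold change of -1.01 ± 1.19 (SE; edgeR unadjusted p = 0.421). Atg2a had 189, 60.9, 95.8, 86.8 and 46.6 CPM, and its groups overlap. Per kilobase, Atg2a was the larger share of the pair in every library, between 55.6 and 80.7%.

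Of the PI3P-binding proteins, Wipi2, which recruits Atg16l1 to the membrane, was the main one. It had 59.2, 2.68, 119, 58.4 and 130.4 CPM, low in the library labelled WT 2 alone. Wipi1 had 96, 1, 235, 0 and 0 counts. In every library Wipi2 made up at least 77.1% of the pair per kilobase.

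Of the conjugation enzymes, 6 of 7 were fitted higher under the Ythdf3-/- label, with a step median of 0.72 and none past the test. The median was 1.24 without WT 2 and 0.45 without Ythdf3-/- 3. Atg12, the ubiquitin-like protein that is joined to Atg5, had 256, 365, 1558, 446 and 1312 counts, or 15.4, 40.7, 245, 49.1 and 187 CPM. The groups do not overlap, although the library labelled Ythdf3-/- 2 lay close to the one labelled WT 2. Means were 28.0 ± 17.9 CPM (SD, n = 2) and 160.4 ± 101 CPM (SD, n = 3), the log2 fold change was 2.40 ± 0.93 (SE), and edgeR gave an unadjusted p = 0.0314 and an adjusted p = 0.964. With DESeq2 the adjusted p was 0.145.

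Atg5, the partner of Atg12, had 34.2, 73.0, 60.1, 63.2 and 124 CPM, with overlapping groups. Atg16l1, which brings the Atg12 and Atg5 pair to the membrane, had 14.1, 61.0, 61.7, 48.4 and 90.4 CPM. Its relative Atg16l2 had 9.97, 36.6, 53.9, 42.2 and 79.8 CPM, the groups just apart, with a log2 fold change of 1.22 ± 1.27 (SE; edgeR unadjusted p = 0.363). That value was 0.55 without WT 1 and 2.52 without WT 2. Both Atg16l genes were lowest in the library labelled WT 1 and highest in the one labelled Ythdf3-/- 3. The make-up of the pair varied little, as Atg16l1 made up between 70.03 and 77.5% of the pair per kilobase.

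The remaining enzymes of the chain had no common pattern. Atg3, the enzyme that transfers ATG8 proteins to lipid, had 83.5, 85.2, 36.5, 62.8 and 82.7 CPM. The libraries labelled Ythdf3-/- all lay below those labelled WT, the highest of them by under 1 CPM, and the log2 fold change was -0.57 ± 0.80 (SE; edgeR unadjusted p = 0.500), or -0.28 without Ythdf3-/- 1. Atg7, the activating enzyme that serves both branches, had 229, 14, 306, 167 and 9 counts. Atg10, which transfers Atg12, had 349, 21, 15, 179 and 177 counts. Atg7 was thus low in the libraries labelled WT 2 and Ythdf3-/- 3, and Atg10 in those labelled WT 2 and Ythdf3-/- 1.

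The ATG8 proteins, which coat the membrane and bind receptors, had the smallest median spread of the 7 steps, with 4 of 5 fitted higher under the Ythdf3-/- label, a step median of 0.28 and none past the test. The median was 0.45 without Ythdf3-/- 3, and 0.16 and 0.09 without Ythdf3-/- 1 and 2. Map1lc3b had 890.4, 471, 723, 947 and 627 CPM, with overlapping groups and a log2 fold change of 0.09 ± 0.36 (SE), which turned to -0.25 without WT 2 and was 0.58 without WT 1. Gabarap had 226, 231, 285, 383 and 238 CPM. By library totals each library labelled Ythdf3-/- lay above both labelled WT, the nearest pair at 238 and 231 CPM, an order that the other scalings end. The log2 fold change was 0.31 ± 0.40 (SE; edgeR unadjusted p = 0.456), or 0.09 without Ythdf3-/- 2 and 0.47 without Ythdf3-/- 3. Gabarapl1 had 219.9, 205, 350.4, 329 and 139 CPM, and Gabarapl2 had 64.3, 76.0, 133, 69.96 and 101 CPM, both with overlapping groups. Of the exon bases of Gabarapl1, 28.3% lie in another annotated gene.

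Map1lc3a was the exception. It had 1238, 613, 6, 291 and 386 counts, or 74.4, 68.4, 0.944, 32.1 and 55.0 CPM. All libraries labelled Ythdf3-/- lay below both labelled WT, with means of 29.3 ± 27.1 against 71.4 ± 4.24 CPM and a log2 fold change of -1.38 ± 1.49 (SE; edgeR unadjusted p = 0.382). It was -0.77 without Ythdf3-/- 1, -2.17 without Ythdf3-/- 3, -3.70 with the replicate block and -2.49 with limma voom. Per kilobase, Map1lc3a made up 8.97 and 10.7% of the ATG8 sum in the libraries labelled WT but 0.110, 3.17 and 8.12% in the others. Map1lc3b was the largest share in every library, from 32.3 to 47.2%, followed by Gabarap, from 22.5 to 31.2%.

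Among the ATG4 proteases, which cut ATG8 proteins at the glycine shown above and also release them from lipid, the make-up of the family varied from library to library. In the fit, 2 of 4 were higher under the Ythdf3-/- label, none passed the test by edgeR, and the step median was 0.20. Without WT 1 that median was 1.48, without Ythdf3-/- 1 it was 0.49, without Ythdf3-/- 3 it was 0.47, and with limma voom 0.03. Atg4b, which acts on all ATG8 proteins, had 20 and 14 counts with the WT label against 1697, 762 and 548 in those labelled Ythdf3-/-, or 1.20 and 1.56 against 267, 84.0 and 78.1 CPM. The groups lie far apart, with means of 1.38 ± 0.254 CPM (SD, n = 2) and 143 ± 107 CPM (SD, n = 3) and a log2 fold change of 6.59 ± 1.15 (SE). EdgeR gave an unadjusted p = 0.000419, which became an adjusted p = 0.964 over all genes, and DESeq2 gave an adjusted p = 8.05e-09. The gene spans chr1:93754905-93789606 on the plus strand of GRCm38 and shares no exon base with another annotated gene.

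Atg4a, whose preferred substrates are the GABARAP proteins, had 44.1, 22.5, 68.3, 54.0 and 69.4 CPM. Its groups do not overlap, and the log2 fold change was 0.86 ± 1.05 (SE; edgeR unadjusted p = 0.435), or 1.37 without WT 1 and 0.50 without WT 2. The annotation holds a pseudogene of Atg4a, and the handling of reads that match both was not given in the sources used here. Atg4c had 572, 423, 1, 849 and 2 counts, so that under the Ythdf3-/- label it was read in library 2 and near 0 in the other two. Atg4d had 191, 19.7, 92.2, 53.5 and 50.6 CPM, with 19.3% of its exon bases shared with Kri1.

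As shares of the family per kilobase, Atg4b made up 0.455 and 1.30% in the libraries labelled WT but 57.9, 24.2 and 31.8% in those labelled Ythdf3-/-. The leading protease was Atg4d in the library labelled WT 1, Atg4c in WT 2, Atg4b in Ythdf3-/- 1, Atg4c in Ythdf3-/- 2 and Atg4a in Ythdf3-/- 3. The family's sum was 63.3 and 28.8 CPM per kilobase with the WT label and 110.5, 83.1 and 58.8 with the other, and these sums overlap.

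**Figure D3:**
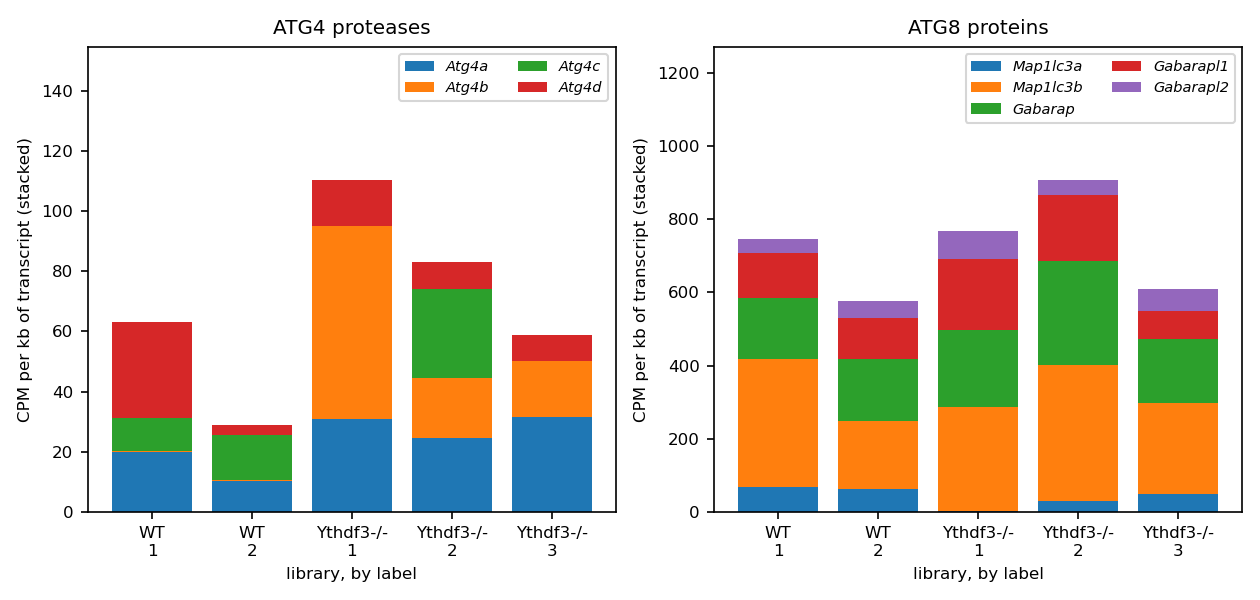
Stacked bars of the ATG4 proteases and of the ATG8 proteins in each of the 5 libraries, in CPM per kilobase of transcript (vertical axes from 0, scaled apart). Atg4b is at 0.455 and 1.30% of its family in the bars labelled WT and between 24.2 and 57.9% in those labelled Ythdf3-/-, while Map1lc3b leads the ATG8 bars in every library.

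Sums of some marker lists of other blood cells did not overlap between the labels, although no tested marker passed edgeR (lowest adjusted p = 0.964). Of all tested genes taken singly, 20.7% do not overlap, and no such share was computed for sums. DESeq2, which called 2.32% of all tested genes, called C1qc higher under the Ythdf3-/- label (adjusted p = 0.00319) and Car1 lower (adjusted p = 0.000266). Car1 had 4093 counts in the library labelled WT 2 and at most 24 in any other. The sum of 5 T and NK markers was 2.28 and 10.4 CPM with the WT label and 93.1, 92.9 and 30.5 CPM under the other, with 2 to 4 of the 5 read per library, Cd3d at 0 in all and Cd3e at 1 count in 1 library. The sum of 8 monocyte and macrophage markers was 26.9 and 47.8 against 112, 63.9 and 247 CPM, with 3 to 7 of the 8 read, Csf1r at 12 counts in the library labelled WT 1 and 0 in the rest, and Adgre1 at 1 count in 1 library. The sum of 6 megakaryocyte markers was 287 and 210.2 against 155, 200.1 and 158 CPM, with 4 to 6 of the 6 read. Its members did not move together, and Pf4 alone lay lower under the Ythdf3-/- label without overlap. Gp1ba went the other way, with 0.0601 and 0 against 22.5, 3.19 and 0 CPM, as did Ppbp, with 0.0601 and 0 against 0, 0 and 18.4 CPM. Whether such cells were in the pools, and any part of them in the values of Atg4b, Ambra1 and Atg12, was not tested. Erythroid, B lymphoid and neutrophil sums overlapped between the labels.

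Of the receptors that link cargo to ATG8 proteins, Sqstm1 and Nbr1 were fitted higher under the Ythdf3-/- label and Optn lower, with a step median of 0.71 and none past the test. Sqstm1, the ubiquitin-binding receptor p62, had 305, 156, 472, 285 and 437 CPM, with 17.3% of its exon bases shared with Mrnip. Its groups overlap at a single pair, the libraries labelled WT 1 and Ythdf3-/- 2, and the log2 fold change was 0.71 ± 0.44 (SE; edgeR unadjusted p = 0.144), which is also the step median. Both were 1.22 without WT 1, 0.35 without WT 2 and 0.18 without WT 2 and Ythdf3-/- 1. Nbr1, a receptor of the same domain plan, had 38.7, 14.4, 96.3, 45.2 and 100.3 CPM, with each library labelled Ythdf3-/- above each labelled WT and a log2 fold change of 1.52 ± 1.04 (SE; edgeR unadjusted p = 0.183), or 2.35 without WT 1 and 1.02 without WT 2. Optn, a receptor for damaged mitochondria and bacteria, had 901, 835, 531, 350 and 2 counts. It was thus at 38.6 CPM or more in 4 libraries and near 0 in the one labelled Ythdf3-/- 3.

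The spread of a gene over the 5 libraries was taken as the SD of log2(CPM + 1). Its median was 1.10 over the 36 members and 1.52 over the 9439 tested genes within the same range of mean CPM. By step the median was 0.42 for ATG8 proteins, 0.82 for the PI3P and lipid step, 0.90 for initiation, 1.09 for conjugation, 1.11 for receptors, 2.11 for the ATG4 proteases and 2.30 for nucleation. Tested genes within the range of mean CPM of the ATG4 proteases had a median of 1.34, below that step. Those within the range of the nucleation genes had 1.64, also below the step, and the ATG8 range gave 0.83, above it. The range of the receptors, from 53.9 to 331 CPM, gave 0.81, but it is wide for 3 genes. Nbr1, at a mean of 59.0 CPM, had the step's median of 1.11, while tested genes binned around 48 CPM had a median of 1.75. These are descriptions of few genes and carry no test.

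Single members differed as widely. In 15 members the highest library was under 5 times the lowest, and Vmp1 had the smallest spread of all 36, 0.22. In 9 members (Atg13, Pik3c3, Pik3r4, Ambra1, Wipi1, Map1lc3a, Atg4b, Atg4c and Optn) it was over 50 times the lowest or the lowest was 0. The largest spreads were those of Atg4b, 3.19, Ambra1, 3.07, and Atg4c, 3.05. In 8 members a single library held over 50% of the gene's summed CPM.

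**Figure D4:**
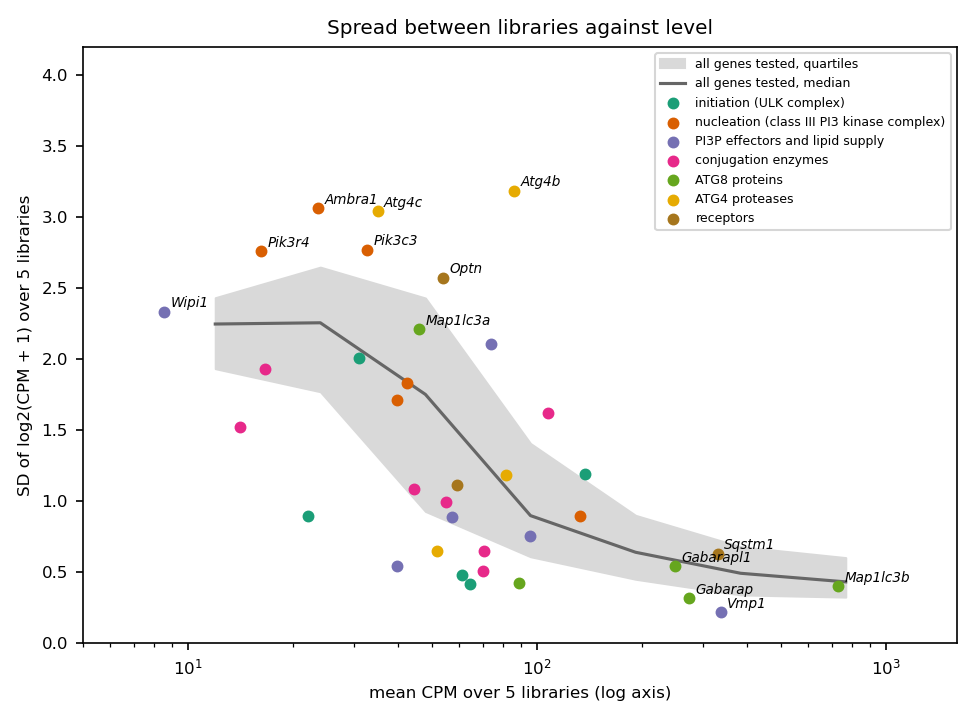
SD of log2(CPM + 1) over the 5 libraries (vertical axis) against mean CPM (horizontal log axis) for each of the 36 genes, coloured by step, with the median (line) and quartiles (band) of all tested genes in bins of mean CPM. Vmp1 at 0.22 lies below the band and Atg4b at 3.19 far above it.

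Promoters were read for the members in a RefSeq table of GRCm38.p6, which held 30 of the 36. The stretches of 250 bases before the start are shown for Atg4b and Ambra1, the members with the largest differences in each direction, and for Atg3, the member that holds the longest of the motifs that follow, on the plus strand and with CACGTG in capitals. They lie at chr1:93754655-93754904, chr2:91729888-91730137 and chr16:45158579-45158828, and 78.0, 44.0 and 68.0% of their bases are G or C.
Atg4b: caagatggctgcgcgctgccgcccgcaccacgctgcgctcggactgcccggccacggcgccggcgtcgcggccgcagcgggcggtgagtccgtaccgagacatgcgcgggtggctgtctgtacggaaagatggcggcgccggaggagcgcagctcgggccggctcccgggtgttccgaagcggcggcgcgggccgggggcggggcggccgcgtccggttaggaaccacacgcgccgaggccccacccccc
Ambra1: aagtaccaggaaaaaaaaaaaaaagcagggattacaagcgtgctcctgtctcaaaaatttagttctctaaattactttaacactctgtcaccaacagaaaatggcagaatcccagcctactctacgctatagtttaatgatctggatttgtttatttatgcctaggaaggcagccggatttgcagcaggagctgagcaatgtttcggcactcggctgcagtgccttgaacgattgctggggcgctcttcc
Atg3: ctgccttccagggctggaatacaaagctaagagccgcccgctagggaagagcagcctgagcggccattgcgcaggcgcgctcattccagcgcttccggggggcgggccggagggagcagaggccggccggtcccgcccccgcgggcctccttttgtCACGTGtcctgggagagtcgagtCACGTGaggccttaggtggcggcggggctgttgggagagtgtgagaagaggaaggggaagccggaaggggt
Over windows from 250 bases before to 50 after the start, and on both strands, the letters CACGTG occur in 4 of the 30 members (Atg14, Atg3, Atg5 and Atg7), where 8.09% of all 27025 genes and 7.15% of all 32851 promoters hold them. The longer TCACGTGA, which contains the former and is the core of the sequence bound by the lysosomal regulators of the TFEB family, occurs in Atg3 alone, where 1.12% of genes hold it. GTAAACA, a core of forkhead factor sites, occurs in 0 of the 30, where 4.05% of genes hold it. A match gives the letters alone and not a bound site.

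Beyond the 36, a further 55 genes of autophagy were listed, and 51 of them could be tested. They did not lean to either label, with 25 fitted higher, 26 lower and a median log2 fold change of -0.01. EdgeR called 0 of them, DESeq2 and limma voom also 0, and at an unadjusted p under 0.05 there were Mitf and Prkag1. Mitf, a transcription factor of the TFEB family, had 0 counts in both libraries labelled WT and 7.24, 23.7 and 5.70 CPM under the other label. Against a floor of 3 counts per library its mean of 12.2 CPM was at least 47.4-fold higher (edgeR unadjusted p = 0.0299, adjusted p = 0.964). Prkag1, a subunit of the energy sensor AMPK, had 171 and 171 CPM with the WT label and 36.6, 88.0 and 37.1 CPM under the other, a log2 fold change of -1.75 ± 0.68 (SE; edgeR unadjusted p = 0.0335, adjusted p = 0.964).

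A few further regulators follow, of which Tfe3, Mtor and Snap29 were picked after their values were seen. Of the 51 tested, 2 lay higher under the Ythdf3-/- label without overlap, where 9.74% of all tested genes do so. Another 4 lay lower without overlap, where 11% do. Tfe3, another factor of that family, had 41.0, 105, 39.0, 0.220 and 7.84 CPM, all libraries labelled Ythdf3-/- below those labelled WT. Mtor, the kinase that holds the ULK complex in check, had 19.3, 104, 6.45, 0 and 16.96 CPM, also without overlap, and Snap29, a fusion protein, likewise lay lower under the Ythdf3-/- label. Vps41, of the tethering complex that docks autophagosomes to lysosomes, had 144, 12.3, 263, 175 and 249 CPM, and lay higher without overlap (edgeR unadjusted p = 0.136). The smallest p of the further machinery was that of Ulk3, with 1.98, 0.446, 89.0, 20.8 and 0.428 CPM, and of the further receptors that of Tollip, with 3.24, 25.9, 20.8, 192 and 90.5 CPM.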

How the data were processed

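The deposited table holds raw read counts per gene symbol, made by the authors with HISAT2 2.2.1 and HTSeq 0.12.4 on mm10, per the submitters' processing notes. Annotation, strand setting and treatment of multiply matching reads were not given in the sources used here. No rows of unassigned reads are in the table.

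Groups follow the sample titles. The 5 libraries' counts went into edgeR 4.0.16 under R 4.3.3, by its quasi-likelihood test (default expression filter, TMM scaling, robust fit, no covariate) and Benjamini-Hochberg adjustment over all 11146 genes tested. DESeq2 1.42.0, voom of limma 3.58.1, other scalings and filters, a replicate block and left-out libraries were alternatives. CPM are counts over library totals, from 6357862 to 16650134, and spreads use log2(CPM + 1). Levels between genes are per kilobase of the principal GENCODE M21 transcript, which also gave exon overlaps. Spans and promoters are from RefSeq GRCm38.p6.

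The members and all lists were chosen with earlier results of these data known. All 36 members are named. Counts and fits are given in full for members with an unadjusted p under 0.05, with groups that do not overlap, or with the highest mean CPM of their step. Of the other autophagy genes, those with an unadjusted p under 0.05 and the smallest p of each sub-list are given. Other genes beyond this rule, such as Tfe3, Mtor and Snap29, were named after their values were seen. The p-values rest on the spread between the 5 libraries, each a pool of cells from a different mouse. Differences between mice cannot be told apart there from differences between pools of few cells.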

Additional observations from a re-analysis of the deposited data

How the results depend on the processing

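The count of members called by edgeR, 0, became 1 with no filter on low counts (Atg4b, adjusted p = 0.00141) and 2 with DESeq2 (Ambra1 and Atg4b). It was 0 under every other alternative, namely 3 other scalings, a stricter filter, limma voom, the replicate block each library left out, and WT 2 and Ythdf3-/- 1 left out together, and for the other autophagy genes it was 0 throughout. The replicate block left the median log2 fold change of the members at 0.42, and over all genes it left 143 higher and 142 lower at an unadjusted p under 0.05, where the fit without it had 235 and 306. Deviations of libraries of equal number from the mean of their label correlated at -0.01 and 0.00. With 2 libraries under WT these deviations mirror each other, so the check cannot show whether libraries of equal number were paired. The members' median log2 fold change ran from 0.33 with limma voom to 0.64 without the library labelled WT 1, where the medians of all genes were -0.17 and 0.31. Members whose groups do not overlap, 13 by library totals, numbered 12 with TMM scaling, an alternative chosen after seeing the data. With fewer libraries the share of all tested genes without overlap, 20.7% with all 5, grows too. The members numbered from 17 to 24 when 1 library was left out, where that share was from 33.3 to 52.6%, and 25 without both WT 2 and Ythdf3-/- 1, where 66.0% of all tested genes do not overlap. Over all alternatives the log2 fold change of Atg4b ran from 5.80 to 6.90 (adjusted p from 8.05e-09 with DESeq2 to 1 in edgeR with the block), that of Ambra1 from -9.22 to -7.25 and that of Atg12 from 1.84 to 3.34. Ambra1 was left out by the stricter filter. Of the 17 members given in full, 14 kept their direction under all alternatives. Atg101 turned to 0.0385 with the size factors of DESeq2, 0.0356 with the upper quartile, 0.0805 with library totals and 0.0385 with DESeq2, and ran from -0.97 to 0.48 over left-out libraries. Vmp1 ran from -0.0180 to 0.33 and Map1lc3b from -0.25 to 0.58, and Map1lc3b was -0.24 without both named libraries. The cause was not tested. The fit rests on 2 libraries under 1 label and a common biological coefficient of variation of 1.26, and values of 3 counts or fewer cannot be told from 0.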

Other observations

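Counted by library, the members were not highest in the same place. The library labelled Ythdf3-/- 3 held the highest value of 10 members, those labelled Ythdf3-/- 1 and 2 of 9 each, WT 1 of 5 and WT 2 of 3. Of all tested genes, 22.9% had their highest value in WT 2, 19.8% in WT 1, and 19.7% or fewer in each of the libraries labelled Ythdf3-/-. The median CPM of the members was 53.8, 43.9, 62.3, 54.5 and 76.1, and that of all tested genes 35.3, 31.5, 34.8, 35.1 and 36.2.

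Tfeb, which gives the TFEB family of lysosomal regulators its name, could not be tested. Its level was 25.01 CPM in the one labelled Ythdf3-/- 1, and at most 0.300 CPM in the others. Foxo3, a forkhead factor that acts on autophagy genes in blood stem cells, was even, with 116, 168, 122, 104 and 148 CPM and a log2 fold change of -0.29 ± 0.53 (SE).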
